A study of Mus musculus with 12 samples.

Results

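The 8 genes described here encode the enzymes and partners that write, keep and oxidise methylated cytosine in mouse DNA. They are the methyltransferase genes Dnmt1, Dnmt3a and Dnmt3b, the partner genes Uhrf1 and Hells, and the dioxygenase genes Tet1, Tet2 and Tet3. They were chosen by symbol, as the probe sets that the platform annotation assigned to 1 of these genes and to no other. This gave 22 probe sets for the 8 genes, of 45037 probe sets tested and 18193 genes with a probe set of their own. Dnmt3a had 5 probe sets, Tet1 had 4, Dnmt1 and Hells had 3 each, Uhrf1, Dnmt3b and Tet2 had 2 each, and Tet3 had 1. The brightest probe set of a gene over the 12 arrays stands for the gene unless another is named.

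RNA came from spleen B cells, selected with beads for B220, of C57BL/6 mice with the transgene Tg(IghelMD4)4Ccg. This transgene, MD4, gives B cells a receptor for hen egg lysozyme (HEL). All 6 groups were cultured with interleukin-21, anti-CD40 and HEL, the first 2 being signals of the kind that follicular helper T cells give. Control cells received a non-targeting construct, and the other cells a construct against Jmjd2a or against Jmjd2c, enzymes that demethylate histone H3 lysine 9. Each of the 3 conditions was collected at day 1 and at day 3, with 2 Affymetrix expression arrays per group. The labels speak of siRNA in some fields and of virus with shRNA in others. No age of the mice was given in these sources. Replicates are titled biological, with no separate animals or cultures named, so p-values measure only the spread between these arrays. Both day 3 control arrays carry the same description and are told apart by their titles alone, so whether they are separate samples rests on the titles.

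Methylation of cytosine in CG dinucleotides is copied to the new strand after each round of replication. Uhrf1 binds the half-methylated site and brings Dnmt1 to it, and Hells, a chromatin remodelling ATPase, opens nucleosomal DNA to this machinery. Dnmt3a and Dnmt3b methylate sites that carried no mark before. Tet enzymes oxidise the methyl group, with 2-oxoglutarate as co-substrate, which the Jmjd2 demethylases also use. Activated B cells divide fast and lose methylation at many sites on the way to plasma cells, and both maintenance and oxidation have known roles in that path.

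The promoters of the 5 genes that passed a test are shown first, because Uhrf1, Hells and Dnmt3b moved one way between day 1 and day 3 controls and Dnmt3a moved the other way. The sequences are from RefSeq on GRCm38.p6. All 8 genes matched, with 13 windows of 300 bases, each 250 bases before to 50 after an annotated start. The E2F motif of S phase genes, in the spellings TTTGGCGC, TTTCGCGC and TTCCCGCC, and the CCAAT box were searched on both strands. TTTCCCGC, which shares all but 1 letter with TTCCCGCC, was added after the sequences had been seen. Capitals mark these motifs. Only bases before the start are printed, each 5′ to 3′ on the strand of the gene.
Dnmt1, start 3, chr9:20952624-20952863, minus strand: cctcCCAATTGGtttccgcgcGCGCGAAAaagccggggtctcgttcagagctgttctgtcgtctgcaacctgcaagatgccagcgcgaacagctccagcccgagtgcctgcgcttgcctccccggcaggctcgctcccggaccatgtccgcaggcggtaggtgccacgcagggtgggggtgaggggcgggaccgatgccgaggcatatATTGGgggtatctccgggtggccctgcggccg
Uhrf1, start 1, chr17:56303237-56303336, plus strand: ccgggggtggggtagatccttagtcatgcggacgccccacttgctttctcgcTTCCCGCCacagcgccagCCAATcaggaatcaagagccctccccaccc
Uhrf1, start 2, chr17:56304123-56304222, plus strand: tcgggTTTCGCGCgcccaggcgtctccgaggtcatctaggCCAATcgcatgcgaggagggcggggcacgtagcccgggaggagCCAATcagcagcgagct
Hells, chr19:38930870-38930989, plus strand: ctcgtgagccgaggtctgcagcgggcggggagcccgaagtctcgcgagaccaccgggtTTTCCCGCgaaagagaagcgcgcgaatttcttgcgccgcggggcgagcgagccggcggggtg
Dnmt3a, start 1, chr12:3806860-3806979, plus strand: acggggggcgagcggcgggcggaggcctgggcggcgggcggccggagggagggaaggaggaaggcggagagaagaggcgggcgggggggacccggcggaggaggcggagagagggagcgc
Dnmt3b, chr2:153649329-153649448, plus strand: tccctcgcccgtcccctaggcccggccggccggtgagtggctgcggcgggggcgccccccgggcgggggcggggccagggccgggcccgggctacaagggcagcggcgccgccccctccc

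The stretch of Uhrf1 before start 1 holds TTCCCGCC at 48 bases before the start. That before start 2 holds TTTCGCGC at 185 bases before it. Dnmt1 start 3 has TTTCGCGC on the other strand at 219 bases before the start, and TTTGGCGC at 33 bases after it, outside the printed stretch. Hells has the added TTTCCCGC at 62 bases before its start. None of these 4 spellings was found in the windows of Dnmt3a, Dnmt3b, Tet1, Tet2 or Tet3. Among all 32851 windows, 0.514% held TTTGGCGC, 0.323% TTTCGCGC, 2.19% TTCCCGCC and 1.07% TTTCCCGC, and 37.4% held CCAAT. Any of the 3 E2F spellings first searched was in 2.96% of windows and, over all windows of a gene, in 3.39% of genes. Each E2F spelling holds a CG, and the share among windows as rich in CG as those of the members was not counted. The members' windows ranged from 2 CG dinucleotides in Dnmt1 start 1 to 57 in Tet2, where the median of all windows was 7. Dnmt3a had 46 and 47 at its overlapping starts 1 and 2, Hells had 34, and Dnmt3b had 30. A match describes these letters only.

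The deposited values were log2 intensities with array medians between 5.2 and 5.26. Day 3 control replicate 2 stood apart from the other arrays. Its values had an interquartile range of 3.09, where the others had 3.38 to 3.63, and an 18S signal of 10.73, where the others had 11.73 to 12.73. It correlated with its replicate at 0.9887 against 0.9959 to 0.9978 in the other groups. Kdm4a, the gene of Jmjd2a, did not pass the test on the arrays labelled Jmjd2a-depleted, with differences from control of 0.11 at day 1 (adjusted p = 0.62) and -0.12 at day 3 (adjusted p = 0.36). Kdm4c, the gene of Jmjd2c, differed by 0.19 (adjusted p = 0.41) and 0.03 (adjusted p = 0.91) on its own arrays. The groups are therefore called the arrays labelled Jmjd2a or Jmjd2c. B cell markers, 7 of 8 measured, had a mean log2 level of 9.82 to 9.87 in day 1 controls, 10.49 to 10.81 on labelled day 1 arrays, 10.01 to 10.12 in day 3 controls and 9.88 to 9.91 on labelled day 3 arrays. Of the 7, 5 were higher on each label at day 1, beside 4.23% (Jmjd2a) and 5.32% (Jmjd2c) of all probe sets. At day 3, 2 were lower on each label, beside 7.11% and 5.04% of all probe sets.

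Genes of other cells moved with the groups. The mean log2 level of 14 macrophage markers was 5.46 to 5.51 in day 1 controls, 8.24 to 8.69 in day 1 Jmjd2a arrays and 8.15 to 9.31 in day 1 Jmjd2c arrays. By day 3 this mean was 7.33 to 7.51 in controls, 6.26 to 6.37 with the Jmjd2a label and 6.21 to 6.39 with the Jmjd2c label. All 14 were higher past the test on both labels at day 1, 12 rose over time in controls, and 9 and 8 were lower on the Jmjd2a and Jmjd2c arrays at day 3. These counts were 9 to 14, 12 to 14, 10 to 13, 4 to 12 and 4 to 12 when single arrays were left out, the lowest without day 1 control replicate 2 for Jmjd2a at day 1, Jmjd2a replicate 2 at day 3 and either Jmjd2c array at day 3. The 5 measured NK cell markers averaged 4.88 to 5.01 in day 1 controls, 6.37 to 6.97 on day 1 labelled arrays, 7.09 to 7.12 in day 3 controls and 5.69 to 5.87 on day 3 labelled arrays. The 7 neutrophil markers reached 7.4 and 8.05 on replicate 2 of the day 1 Jmjd2a and Jmjd2c arrays and lay between 4.62 and 5.76 elsewhere. The 7 T cell markers ranged from 5.85 to 6.49, and the 5 red cell precursor markers from 4.18 to 4.45 except for 5.33 to 5.76 on day 1 labelled arrays. The part of other cells in the differences of the 8 genes was not tested, and in bulk RNA fewer cells of a type and less RNA per cell cannot be told apart.

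Differences between groups are given on the log2 scale from 1 limma fit over all probe sets, with an adjusted p under 0.05 as past the test. Day 3 controls against day 1 controls put 4 of the 8 genes past the test, Dnmt3a higher and Uhrf1, Hells and Dnmt3b lower, where 8.46% of all probe sets were called higher and 15.4% lower. At day 3 the same 4 genes lay on the opposite side on both labels. The arrays labelled Jmjd2a had Uhrf1, Hells and Dnmt3b higher and Dnmt3a lower than control, with 13.7% and 7.11% of all probe sets called higher and lower. The arrays labelled Jmjd2c gave these directions too, with 9.28% and 5.04%. These shares cover all probe sets, dim ones included, while a member is the brightest of its gene. The share among brightest probe sets was not counted. All these comparisons use the day 3 control arrays, so their opposite signs are not separate findings. The members' median difference was -0.06 over time in controls and 0.02 and 0.01 at day 3 on the labels, beside 0.04, -0.04 and -0.01 over all probe sets.

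At day 1 the arrays of both labels had 2 genes lower, Dnmt1 and Hells, and 0 higher. The share of all probe sets called lower and higher was 3.25% and 4.23% for Jmjd2a and 5.69% and 5.32% for Jmjd2c. The members' median difference was -0.18 and -0.14, beside -0.04 and -0.03 over all probe sets. From day 1 to day 3, Dnmt1 and Hells rose on both labels and no member fell. There 2.26% of all probe sets were higher and 3.35% lower for Jmjd2a, and 3.27% and 5.36% for Jmjd2c. Quantile normalization moved the last split from 1472 higher and 2416 lower probe sets to 2381 and 2444.

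**Figure D1:**
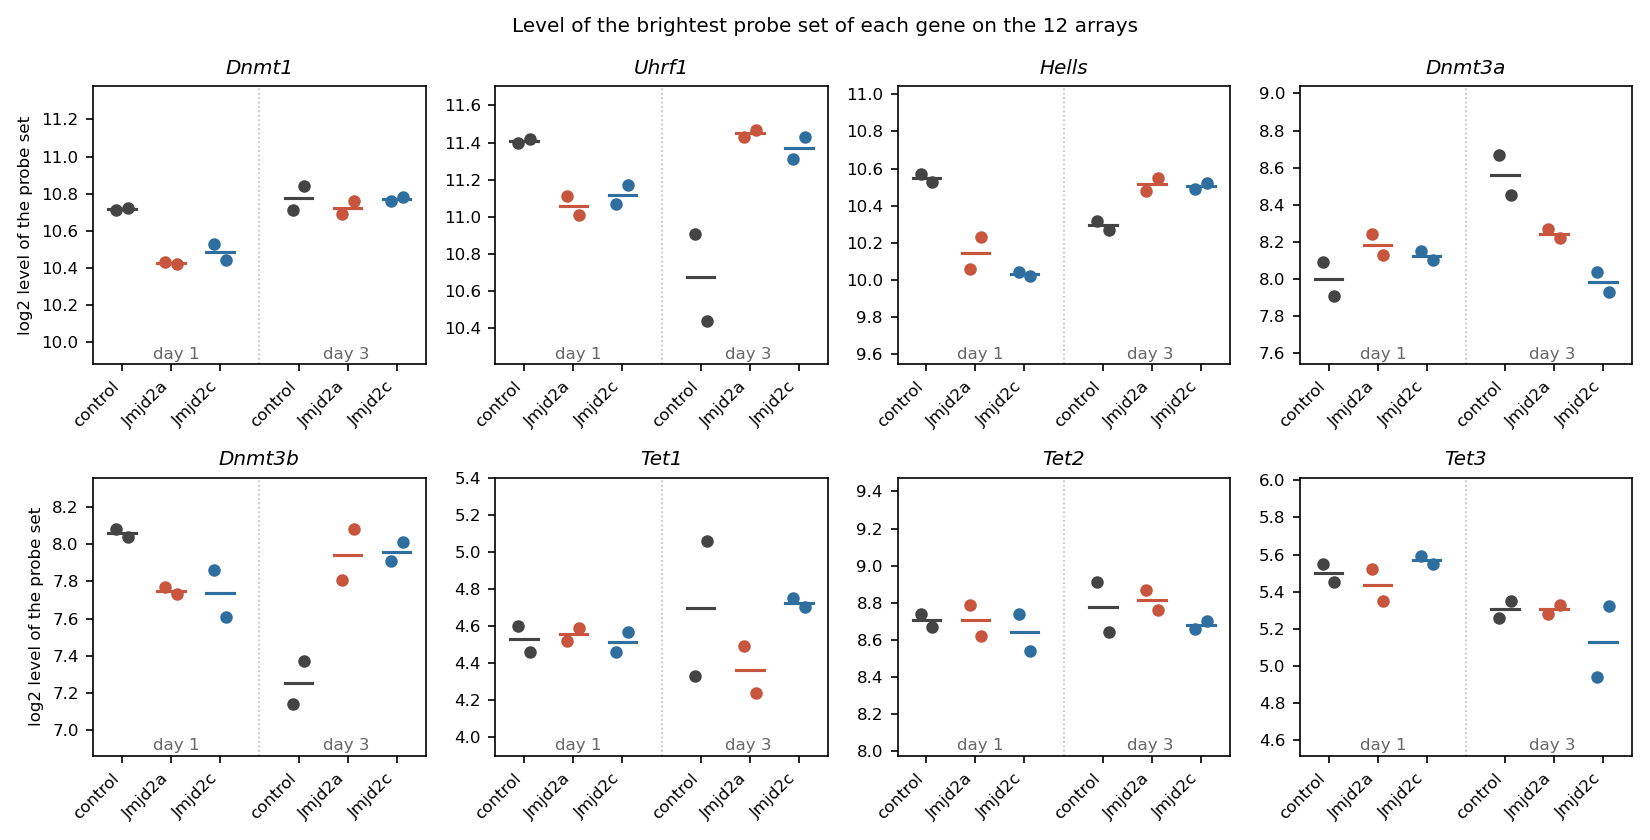
Log2 level of the brightest probe set of each gene (vertical axis, every panel spanning the same log2 range) in the 6 groups (horizontal axis); each point is 1 array and each bar the mean of 2. Day 3 controls stand lowest for Uhrf1 and Dnmt3b and highest for Dnmt3a, while the Tet panels show no group apart from the rest.

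Dnmt1, the maintenance methyltransferase, was lower on the labelled arrays at day 1 and nearly level everywhere else. Its brightest probe set, 1435122_x_at, read 10.71 and 10.72 in day 1 controls, 10.43 and 10.42 on the Jmjd2a arrays and 10.53 and 10.44 on the Jmjd2c arrays of that day. The day 3 readings were 10.71 and 10.84 in controls, 10.69 and 10.76 with the Jmjd2a label and 10.76 and 10.78 with the Jmjd2c label. The 4 labelled day 1 arrays were thus below the 8 others, which lay between 10.69 and 10.84. The day 1 difference was -0.29 (95% interval -0.42 to -0.16, adjusted p = 0.013) for Jmjd2a and -0.23 (-0.36 to -0.09, adjusted p = 0.033) for Jmjd2c. At day 3 the differences were -0.05 (adjusted p = 0.58) and -0.01 (adjusted p = 0.97).

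In order of level, the 4 highest Dnmt1 groups were day 3 control, day 3 Jmjd2c, day 3 Jmjd2a and day 1 control, and each neighbour's interval included 0. The step down to day 1 Jmjd2c was 0.23 (0.09 to 0.36), and from there to day 1 Jmjd2a 0.06 (-0.07 to 0.2). From day 1 to day 3 Dnmt1 rose by 0.3 on the Jmjd2a arrays and by 0.28 on the Jmjd2c arrays, adjusted p = 0.013 each. In controls it changed by 0.06 (adjusted p = 0.49). The change of the label difference between days was 0.24 (adjusted p = 0.082) and 0.22 (adjusted p = 0.11), which did not pass for this probe set. It did pass for probe set 1447877_x_at, at 0.35 (adjusted p = 0.043) and 0.4 (adjusted p = 0.025). For 1422946_a_at it was 0.54 with the Jmjd2a label (adjusted p = 0.028) and 0.3 with the Jmjd2c label (adjusted p = 0.25). Without day 3 control replicate 2 the 0.54 became 0.31.

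The other Dnmt1 probe sets differed from the brightest and from each other. At day 1, probe set 1422946_a_at read 10.56 and 10.48 in controls, with differences of -0.18 (adjusted p = 0.44) and -0.09 (adjusted p = 0.75) that did not pass. Probe set 1447877_x_at read 9.14 and 9.23 in day 1 controls and 8.81 to 8.9 on the 4 labelled arrays, differences of -0.32 (adjusted p = 0.027) and -0.33 (adjusted p = 0.017), and it did not pass at day 3. With 1 array left out, these day 1 calls were lost in 6 and 3 cases, among them each day 1 control. Probe set 1422946_a_at read 10.49 and 10.03 in day 3 controls and 10.61 and 10.63 on the Jmjd2a arrays, a difference of 0.36 (adjusted p = 0.034) where the brightest probe set gave -0.05. The 10.03 came from day 3 control replicate 2, without which the difference was 0.14 (adjusted p = 0.16). This call was also lost without either day 1 control or any of the 4 labelled day 3 arrays. Suffixes _x_at and _a_at mark probe sets that can detect other sequences or several transcripts of the gene. The day 1 calls of the brightest probe set were lost when single arrays were left out, in 3 of 12 cases for Jmjd2a (day 1 control replicates 1 and 2, and Jmjd2a replicate 1) and in 7 for Jmjd2c (day 1 control replicates 1 and 2, Jmjd2c replicate 2, and each of the 4 labelled day 3 arrays). The differences then stayed between -0.3 and -0.28 and between -0.27 and -0.18.

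Uhrf1, which carries Dnmt1 to half-methylated sites, was lowest in day 3 controls. Probe set 1415810_at read 11.40 and 11.42 in day 1 controls and 10.91 and 10.44 in day 3 controls. On the day 3 arrays it read 11.43 and 11.47 with the Jmjd2a label and 11.31 and 11.43 with the Jmjd2c label. Both day 3 controls were below the other 10 arrays, and the labelled day 3 arrays lay at the day 1 control level. Uhrf1 fell by 0.74 over time in controls (interval -0.98 to -0.49, adjusted p = 0.00046), to 0.601 of its day 1 level. Against day 3 controls it was higher by 0.78 with the Jmjd2a label (0.53 to 1.02, adjusted p = 0.00044), a ratio of 1.71, and by 0.7 with the Jmjd2c label (0.45 to 0.94, adjusted p = 0.0011), a ratio of 1.62.

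The spread of the day 3 controls bears on the size of the Uhrf1 differences. Without day 3 control replicate 2 they were 0.54 and 0.47 for the labels and -0.5 over time, and each still passed. Over all single arrays left out they ranged from 0.54 to 1.01, from 0.47 to 0.93 and from -0.97 to -0.5. The dimmer probe set, 1415811_at, read 8.73 and 8.66 in day 1 controls, 8.19 and 7.40 in day 3 controls, and 8.43 to 8.75 on the 4 labelled day 3 arrays. Its differences were 0.95 (adjusted p = 0.004) and 0.68 (adjusted p = 0.032) for the labels and -0.9 (adjusted p = 0.0046) over time in controls. Without day 3 control replicate 2 they were 0.56 (adjusted p = 0.0042), 0.29 (adjusted p = 0.11) and -0.51 (adjusted p = 0.0061). The Jmjd2c call of this probe set was also lost without either day 1 control or any of the 4 labelled day 3 arrays, 7 of 12 cases in all.

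At day 1 Uhrf1 read 11.11 and 11.01 on the Jmjd2a arrays and 11.07 and 11.17 on the Jmjd2c arrays, below both controls. These differences, -0.35 (adjusted p = 0.091) and -0.29 (adjusted p = 0.14), did not pass with all 12 arrays. They passed once either day 3 control array was left out of the fit (without replicate 2, -0.35, adjusted p = 0.0012, and -0.29, adjusted p = 0.0028). The difference from control changed between the days by 1.12 for Jmjd2a (adjusted p = 0.00038) and 0.99 for Jmjd2c (adjusted p = 0.00088). In order of level the 3 highest groups, day 3 Jmjd2a, day 1 control and day 3 Jmjd2c, were 0.04 apart each, with intervals that included 0.

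Hells, the remodelling ATPase, was low on the labelled arrays at day 1 and, by less, in day 3 controls. Probe set 1417541_at read 10.57 and 10.53 in day 1 controls, 10.06 and 10.23 with the Jmjd2a label and 10.04 and 10.02 with the Jmjd2c label. The day 3 controls read 10.32 and 10.27, and the labelled arrays of that day 10.48 and 10.55 with the Jmjd2a label and 10.49 and 10.52 with the Jmjd2c label. Day 1 controls and the labelled day 3 arrays formed the upper level, day 3 controls lay between, and the 4 labelled day 1 arrays were lowest. The day 1 differences were -0.41 (-0.55 to -0.26, adjusted p = 0.0025) and -0.52 (-0.66 to -0.38, adjusted p = 0.00035). At day 3 they were 0.22 (0.08 to 0.36, adjusted p = 0.03) and 0.21 (0.07 to 0.35, adjusted p = 0.048). Hells fell by 0.26 over time in controls (adjusted p = 0.012) and rose by 0.37 (adjusted p = 0.0055) and 0.47 (adjusted p = 0.00074) on the labels.

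The Hells probe set 1453361_at passed on both labels on both days, with day 3 controls as low as the labelled day 1 arrays. It read 6.49 and 6.37 in day 1 controls, 5.13 to 5.72 on the labelled day 1 arrays, 5.40 and 5.22 in day 3 controls and 5.84 to 6.18 on the labelled day 3 arrays. Its differences were -1 (adjusted p = 0.0035) and -1.07 (adjusted p = 0.0017) at day 1, and 0.83 (adjusted p = 0.0041) and 0.61 (adjusted p = 0.031) at day 3. The last was lost in 7 of 12 cases with 1 array left out, without either day 1 control, day 3 control replicate 2 or any labelled day 3 array. The third, 1430139_at, ranged from 6.91 to 7.6 and passed no comparison. The day 1 calls of 1417541_at passed with any single array left out. The day 3 calls did not: they were lost in 7 of 12 cases for Jmjd2a (both day 1 controls, day 3 control replicate 2 and the 4 labelled day 3 arrays) and in 9 for Jmjd2c (these 7 and both day 1 Jmjd2c arrays), with differences from 0.19 to 0.25 and from 0.19 to 0.23. Quantile normalization gave 0.17 (adjusted p = 0.089) and 0.18 (adjusted p = 0.084), and the replicate number as a block gave 0.21 (adjusted p = 0.052) for Jmjd2c.

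Dnmt3a, a methyltransferase for new sites, moved against Uhrf1, Hells and Dnmt3b. Probe set 1423066_at read 8.09 and 7.91 in day 1 controls and 8.67 and 8.45 in day 3 controls. At day 3 it read 8.27 and 8.22 with the Jmjd2a label and 8.04 and 7.93 with the Jmjd2c label. Day 3 controls were above the other 10 arrays. Dnmt3a rose by 0.56 over time in controls (0.34 to 0.79, adjusted p = 0.0017), 1.48 times its day 1 level. Against day 3 controls it was lower with both labels, with a difference of -0.32 for Jmjd2a (-0.54 to -0.09, adjusted p = 0.047) and -0.58 for Jmjd2c (-0.8 to -0.35, adjusted p = 0.0023).

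All 5 Dnmt3a probe sets were lower past the test on both labels at day 3. The others differed by -0.39 and -0.53 (1423063_at), -0.42 and -0.4 (1423064_at), -0.42 and -0.42 (1460324_at) and -0.59 and -0.65 (1423065_at), for Jmjd2a and Jmjd2c in turn. Each of these 8 calls was lost in 1 to 5 of 12 cases with 1 array left out, at least once through a day 3 array of the label itself. In controls 4 of the 5 rose from day 1 to day 3, and 1423065_at differed by 0.4 (adjusted p = 0.1). Day 1 differences of the brightest were 0.18 (adjusted p = 0.39) and 0.12 (adjusted p = 0.6), on arrays reading 8.24 and 8.13 and 8.15 and 8.10. Arrays of both labels at day 3 differed from each other by 0.26 (0.03 to 0.48), which did not pass over all probe sets (adjusted p = 0.85) but did where only the day 3 labelled groups were fitted (adjusted p = 0.038). The Jmjd2a call at day 3 of 1423066_at was lost in 11 of 12 cases with 1 array left out, in all but that of day 3 control replicate 2, with values from -0.34 to -0.21 over those 11. With each array centred on its median it was -0.28 (adjusted p = 0.091).

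Dnmt3b, the other methyltransferase for new sites, had the lowest levels in day 3 controls. Probe set 1449052_a_at read 8.08 and 8.04 in day 1 controls and 7.14 and 7.37 in day 3 controls. At day 3 it read 7.81 and 8.08 with the Jmjd2a label and 7.91 and 8.01 with the Jmjd2c label. Both day 3 controls were below the other 10 arrays. Dnmt3b fell by 0.8 over time in controls (-1.07 to -0.53, adjusted p = 0.00053), to 0.573 of its day 1 level. At day 3 it was higher by 0.69 (0.41 to 0.96, adjusted p = 0.0021), a ratio of 1.61, and by 0.7 (0.43 to 0.97, adjusted p = 0.0023), a ratio of 1.63.

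The second Dnmt3b probe set, 1418351_a_at, read 7.23 and 7.13 in day 1 controls, 6.46 and 6.28 in day 3 controls and 6.96 to 7.10 on the labelled day 3 arrays. It fell by 0.81 over time in controls (adjusted p = 0.00014) and was higher by 0.69 (adjusted p = 0.00067) and 0.62 (adjusted p = 0.0016) at day 3. At day 1 the brightest probe set read 7.77 and 7.73 with the Jmjd2a label and 7.86 and 7.61 with the Jmjd2c label, below both controls. Those differences, -0.31 (adjusted p = 0.18) and -0.32 (adjusted p = 0.14), did not pass. The day 3 and control time calls of both probe sets passed with any single array left out, between 0.55 and 0.82 for Jmjd2a, 0.58 and 0.82 for Jmjd2c and -0.92 and -0.69 over time for the brightest. Fitted on the 4 arrays of the comparison alone, the Jmjd2a difference of 0.69 had an adjusted p of 0.054.

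**Figure D2:**
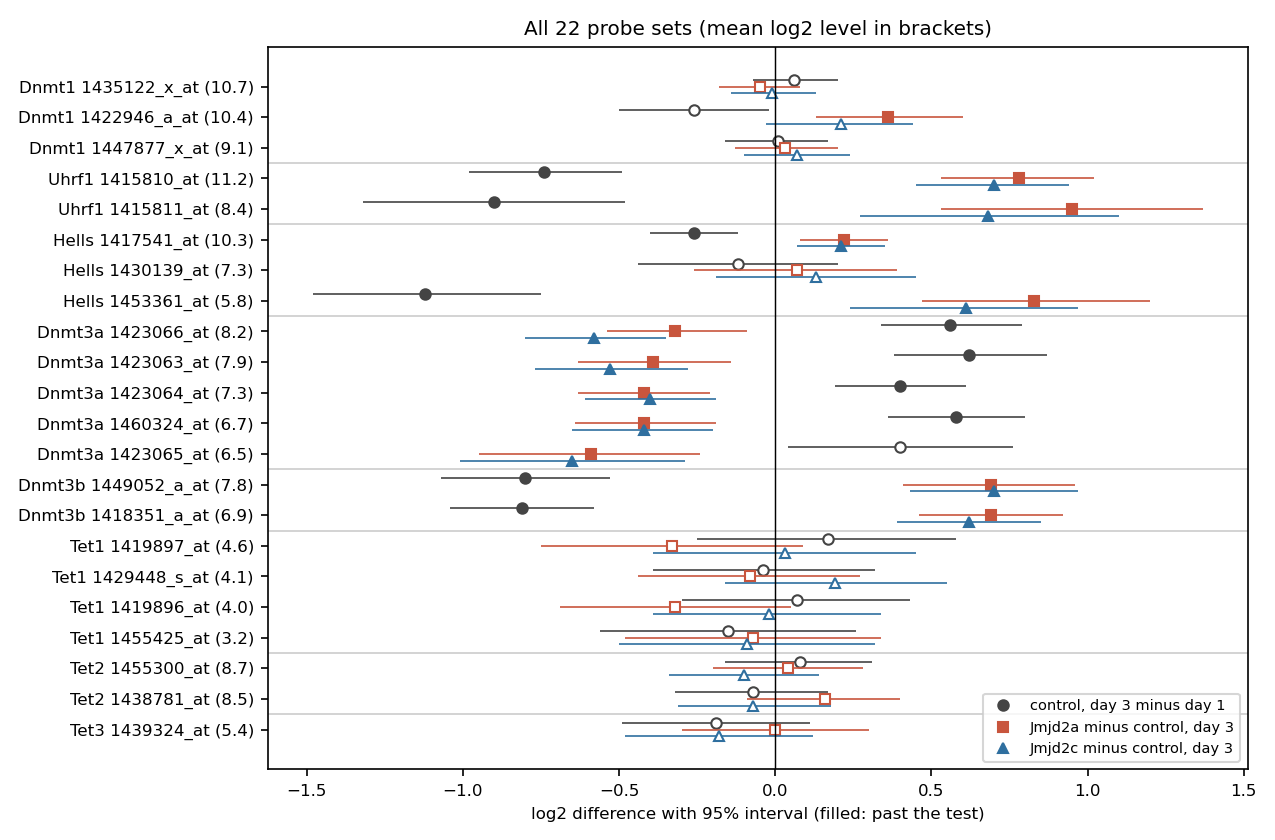
Log2 difference with its 95% interval (horizontal axis) for each of the 22 probe sets (vertical axis, mean log2 level in brackets) in 3 comparisons, which share the day 3 control arrays. The 5 Dnmt3a probe sets lie right of 0 over time in controls and left of 0 on the labels, and both Uhrf1 and both Dnmt3b probe sets lie the other way round; filled symbols passed the test.

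The Tet genes, which encode the oxidising enzymes, did not pass in any comparison of the main fit with their brightest probe sets. Tet2 probe set 1455300_at read 8.74 and 8.67 in day 1 controls and 8.91 and 8.64 in day 3 controls, and 8.54 to 8.87 on the 8 labelled arrays. Differences of this probe set from control were between -0.1 and 0.04, with intervals within -0.34 to 0.28. The second Tet2 probe set, 1438781_at, ranged from 8.24 to 8.73 and passed no comparison. Its widest difference from control was -0.32 (-0.56 to -0.08, adjusted p = 0.097), on the day 1 Jmjd2c arrays. Tet3 probe set 1439324_at read 5.55 and 5.45 in day 1 controls, 5.26 and 5.35 in day 3 controls, 5.28 and 5.33 on the day 3 Jmjd2a arrays and 4.94 and 5.32 on the day 3 Jmjd2c arrays. The widest Tet3 difference was the change over time with the Jmjd2c label, -0.44 (adjusted p = 0.077), which did not pass in the main fit. It passed with array weights (adjusted p = 0.036) and with dim probe sets left out (adjusted p = 0.041).

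Tet1 had probe sets in the dim part of the array. Its brightest, 1419897_at, read 4.24 to 4.75 on all arrays but day 3 control replicate 2, where it read 5.06. The dimmest, 1455425_at, had a mean level at the 12.3 percentile of all probe sets. It read 3.09 and 2.91 in day 1 controls, 4.42 and 3.74 with the Jmjd2a label, 3.71 and 3.73 with the Jmjd2c label and 2.62 to 2.95 on the 6 day 3 arrays. It was higher by 1.08 (adjusted p = 0.0044) and 0.72 (adjusted p = 0.028) at day 1, while the 3 brighter probe sets of Tet1 did not pass. The Jmjd2a difference ranged from 0.74 to 1.42 with single arrays left out and did not pass without day 1 control replicate 2, and the Jmjd2c call was lost without any 1 of the 4 arrays compared. The values are not given with detection calls, so whether such a level is above background was not tested.

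**Figure D3:**
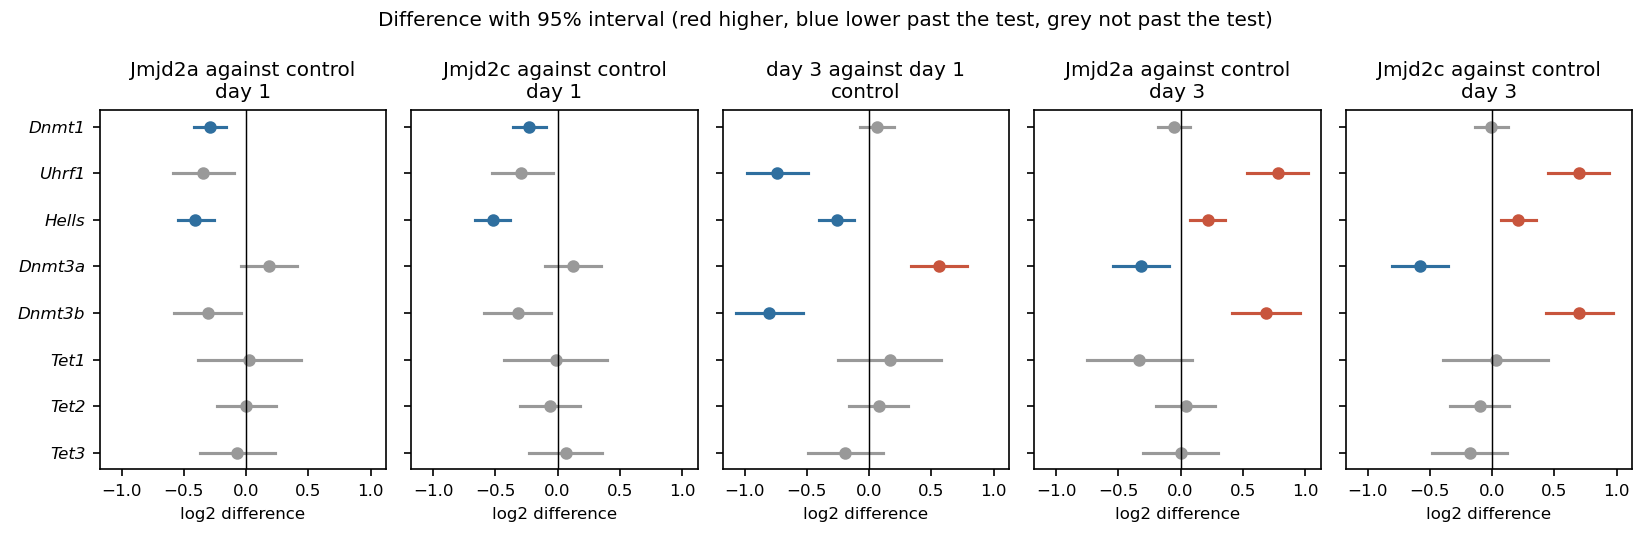
Log2 difference with its 95% interval (horizontal axis) of the brightest probe set of each gene (vertical axis) in 5 comparisons of 2 arrays with 2; red is higher and blue lower past the test, grey did not pass. Hells and Dnmt1 are blue in both day 1 panels, and Uhrf1, Hells, Dnmt3a and Dnmt3b swap colours between the control time panel and the day 3 label panels.

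The difference from control changed between day 1 and day 3 for 4 of the 8 genes on both labels. Uhrf1, Hells and Dnmt3b changed upward and Dnmt3a downward, where 12% of all probe sets changed upward and 6.36% downward for Jmjd2a, and 10.7% and 6.84% for Jmjd2c. Hells changed by 0.63 (adjusted p = 0.00049) for Jmjd2a and 0.73 (adjusted p = 0.00016) for Jmjd2c. Dnmt3b changed by 1 (adjusted p = 0.0018) and 1.02 (adjusted p = 0.0014). Dnmt3a changed by -0.5 (adjusted p = 0.032) and -0.7 (adjusted p = 0.0049). These are the brightest probe sets. The other Dnmt3a probe sets changed by -0.45 to -0.27 for Jmjd2a, and none passed (adjusted p = 0.077 to 0.42). For Jmjd2c they changed by -0.57 to -0.23, and 1423063_at alone passed (adjusted p = 0.028). Hells 1430139_at did not pass, at 0.44 (adjusted p = 0.18) and 0.58 (adjusted p = 0.083). Hells 1453361_at and the dimmer Uhrf1 and Dnmt3b probe sets passed on both labels. Macrophage markers changed side between the days in the same comparisons, as given above.

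**Figure D4:**
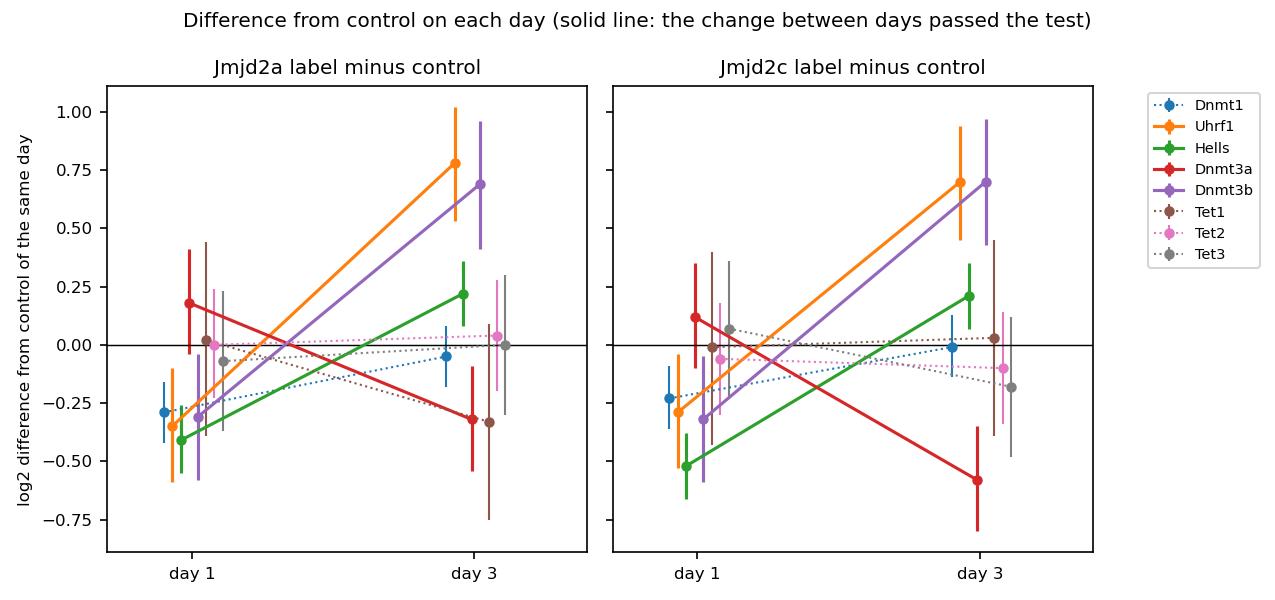
Log2 difference from the control of the same day (vertical axis, with 95% intervals) at day 1 and day 3 (horizontal axis) for the brightest probe set of each gene and each label. Solid lines mark Uhrf1, Hells, Dnmt3b and Dnmt3a, whose change between days passed the test; the dotted lines of Dnmt1 and the Tet genes did not.

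Set against day 1 controls, the labelled day 3 arrays had 0 of the 8 genes past the test, at unequal times and thus as a description. For Jmjd2a 0.129% of all probe sets were higher and 0.0377% lower, and for Jmjd2c 0.133% and 0.0266%. Uhrf1 differed by 0.04 (-0.2 to 0.28) and -0.04 (-0.28 to 0.21). Dnmt3b differed by -0.12 (-0.39 to 0.15) and -0.1 (-0.37 to 0.17), and Hells by -0.04 (-0.18 to 0.11) and -0.05 (-0.19 to 0.1). Dnmt3a differed by 0.25 (0.02 to 0.47, adjusted p = 0.93) with the Jmjd2a label and by -0.01 (-0.24 to 0.21) with the Jmjd2c label.

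Between the labels, limma called 0 of 45037 probe sets on either day, 0% of those tested, with 1081 and 2571 at an unadjusted p under 0.05. At day 1 the 8 genes differed by -0.13 to 0.11, with Hells at 0.11 (-0.03 to 0.26). At day 3 the 8 genes differed by -0.36 to 0.26, with Tet1 at -0.36 (-0.78 to 0.06), Dnmt3a at 0.26 (0.03 to 0.48) and Tet3 at 0.18 (-0.12 to 0.48). Uhrf1 differed by 0.08 (-0.17 to 0.32), Dnmt3b by -0.01 (-0.29 to 0.26) and Hells by 0.01 (-0.13 to 0.15). These intervals bound what 2 arrays a group could have missed and do not show that the labels act alike.

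Counts in this and the following lists stand beside the shares of all probe sets called in the same comparison. Those were 8.46% higher and 15.4% lower over time in controls. On the Jmjd2a arrays they were 4.23% and 3.25% at day 1 and 13.7% and 7.11% at day 3. On the Jmjd2c arrays they were 5.32% and 5.69%, then 9.28% and 5.04%. A count of 1 in a list this short lies near several of these shares. Close relatives and regulators of the methyltransferases, all 12 measured, had genes called in both directions. Over time in controls, 1 rose and 3 fell, of which 1 fell without either day 1 control array. Cdca7, which activates Hells, fell by 1.32 (adjusted p = 3.2e-07). Pclaf, the PCNA-bound factor that helps recruit Dnmt1, rose by 0.97 (adjusted p = 1.5e-06). At day 3 Cdca7 was higher by 1.23 (adjusted p = 1.7e-06) and 1.14 (adjusted p = 3.1e-06) on the labels and Pclaf was lower, at -0.69 (adjusted p = 3.4e-05) and -0.67 (adjusted p = 5e-05). There 3 and 2 of the 12 were higher and 1 lower on each label, and the counts of higher genes ranged from 1 to 4 with single arrays left out, the lowest without either day 3 array of the label and, for Jmjd2c, also without either day 1 control or day 3 Jmjd2a array. At day 1, 3 were lower on each label, with Cdca7 at -0.38 (adjusted p = 0.008) and -0.36 (adjusted p = 0.008) and the ligase gene Lig1 at -0.32 and -0.27, and no day 1 count of this list was above 1 without day 1 control replicate 1 or 2.

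The list of readers of methylated DNA also holds Mbd3, a family relative that is not itself a selective reader of methylated CG. Of its 7 measured genes, all called readers here for short, 2 rose and 1 fell over time in controls. Mbd1, a repressor that binds methylated CG, rose by 0.45, and Mbd3, a subunit of the NuRD complex, fell by 0.71. At day 3, 1 was higher and 2 lower on each label, with Mbd3 at 0.66 and 0.67 and Mbd1 at -0.33 and -0.38. There 13.7% and 9.28% of all probe sets were higher on the Jmjd2a and Jmjd2c labels, and 7.11% and 5.04% lower. At day 1, 1 was higher on each label, Zbtb4 at 0.71 and 0.75, and 0 and 1 were lower. With single arrays left out, the higher readers at day 3 and the lower ones over time in controls numbered 1 to 3, and the other counts reached 0.

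Genes for removal of oxidised or deaminated cytosine, 14 of 17 measured, included the uracil glycosylase gene Ung, which fell by 1.43 over time in controls (adjusted p = 3.5e-07). In that comparison 5 of the 14 fell and 2 rose. At day 3, 5 were higher and 2 lower with the Jmjd2a label, and 4 and 1 with the Jmjd2c label, where Ung was higher by 1.29 and 1.26. Without day 3 control replicate 1 the counts of higher genes were 8 and 8, and 9 fell over time. The lower genes at day 3 did not pass without day 3 control replicate 2, and the Jmjd2c count of higher genes was 2 without Jmjd2c day 3 replicate 2. At day 1, 2 and 3 were lower, with Ung at -0.58 and -0.52, and 1 and 2 higher, with the stress gene Gadd45a at 0.66 and 0.73. The day 1 counts of lower genes ranged from 1 to 4 on each label with single arrays left out, and those of higher genes from 0 to 1 and from 1 to 3, and both were at their lowest without day 1 control replicate 1 or replicate 2.

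The methyl donor cycle makes S-adenosylmethionine, the methyl source of the Dnmt enzymes, and 9 of its 11 genes were measured. In controls 6 fell from day 1 to day 3 and 0 rose, with a median of -0.39 beside 0.04 for all probe sets. Shmt2, the mitochondrial serine hydroxymethyltransferase, fell by 1.05 (adjusted p = 1.5e-06), the widest fall of the list. At day 3, 5 were higher on each label and 0 lower, with medians of 0.37 and 0.32, Shmt2 at 0.88 and 0.83 and Mthfd2, a folate enzyme of mitochondria, at 0.37 and 0.32. At day 1, 7 and 6 were lower, with medians of -0.34 and -0.34 and Shmt1, the cytosolic partner of Shmt2, at -0.49 on each label. The day 1 counts ranged from 1 to 8 and from 2 to 8 with single arrays left out, and were lowest without day 1 control replicate 2. They moved by over 1.5 times also without day 1 control replicate 1 and, for Jmjd2a, without Jmjd2a day 1 replicate 1 or either day 3 Jmjd2c array. Without day 3 control replicate 1, 8 were higher for Jmjd2a at day 3.

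Tet enzymes need 2-oxoglutarate, and 11 of 12 genes that make it or its competitors were measured. Idh1, the cytosolic isocitrate dehydrogenase, rose by 1.02 over time in controls and Idh2, its mitochondrial counterpart, fell by 0.92, in a list with 2 higher and 4 lower. At day 3, 4 were higher and 2 lower on each label, with Idh1 at -0.68 and -0.74. Ogdh, which consumes 2-oxoglutarate, was at 0.81 with the Jmjd2a label and Idh2 at 0.77 with the Jmjd2c label. At day 1, 2 were lower on each label, Idh3a at -0.26 and -0.28 and Fh1 at -0.18 and -0.2, and 0 without day 1 control replicate 1.

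Dnmt1, Uhrf1 and Hells are also known as genes of S phase, so the replication and mitosis lists are given beside them. Of 28 measured DNA replication genes, 18 fell and 3 rose over time in controls, with a median of -0.35, and Mcm2, a helicase subunit, fell by 1.18. At day 3, 15 were higher on each label, with 2 and 3 lower and medians of 0.31 and 0.27, and Mcm2 was at 1.04 and 0.99. At day 1, 20 and 22 were lower and 0 higher, with medians of -0.36 and -0.39. These day 1 counts fell to 5 and 9 at the least with single arrays left out, without day 1 control replicate 1 for Jmjd2a and replicate 2 for Jmjd2c. Leaving out the other control of that day, Jmjd2a replicate 1 or Jmjd2c replicate 2 also moved them by over 1.5 times. The mean log2 level of the replication list was 9.92 in both day 1 controls, 9.52 to 9.56 on the labelled day 1 arrays, 9.45 to 9.61 in day 3 controls and 9.83 to 9.89 on the labelled day 3 arrays. Day 1 controls and the labelled day 3 arrays were the high groups of this list, as they were for Hells, Uhrf1 and Dnmt3b. The brightest Dnmt1 probe set differed from the list in day 3 controls, where it read 10.71 and 10.84, as high as in these groups. Probe set 1422946_a_at was instead lowest in day 3 controls, at a mean of 10.26. It changed by -0.26 over time in controls (adjusted p = 0.11), and by -0.03 without day 3 control replicate 2.

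The mitosis list ran the other way at day 3. All 19 measured genes rose over time in controls, with a median of 1.26, and all 19 were lower on both labels at day 3, with medians of -0.96 and -0.97. Ccnb2, a mitotic cyclin, rose by 2.24 in controls and was at -1.54 and -1.48 at day 3. At day 1, 14 and 16 of the 19 were lower, with medians of -0.39 and -0.42. The day 1 counts were at least 4 and 6 with single arrays left out, the lowest without day 1 control replicate 2 for Jmjd2a and replicate 1 for Jmjd2c, and they moved by over 1.5 times also without the other control, either day 1 Jmjd2a array or Jmjd2c replicate 2. Dnmt3a thus had its highest group, day 3 controls, in common with this list. At day 1 its brightest probe set differed by 0.18 and 0.12, which did not pass, where the list medians were -0.39 and -0.42. Its other probe sets did not share 1 sign at day 1, and none passed. Probe set 1423063_at was at 0.06 and 0.04. Below control were 1423064_at (-0.14 and -0.17), 1460324_at (-0.07 and -0.16) and 1423065_at (-0.28 and -0.19). Whether Dnmt3a followed the list at day 1 is thus not settled. The brightest Dnmt1 probe set also had day 3 controls as its highest group, by 0.01 (-0.13 to 0.14), while 1422946_a_at had them as its lowest.

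**Figure D5:**
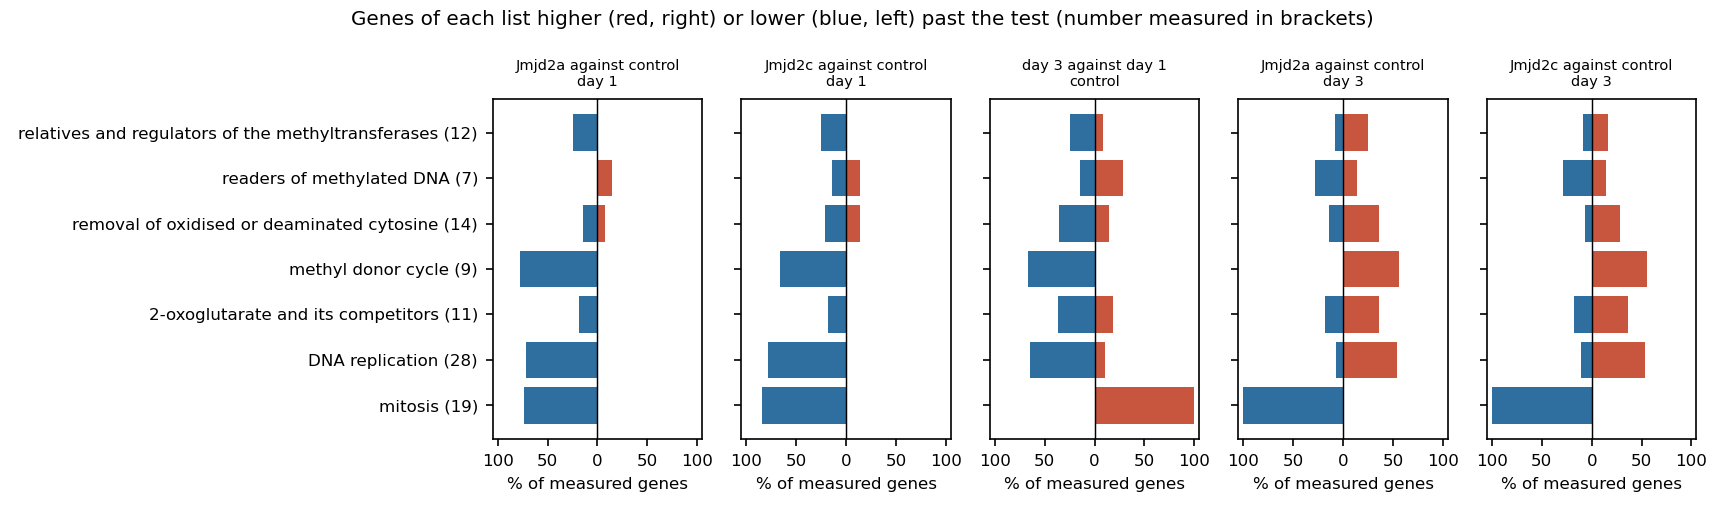
Share of the measured genes of each list (vertical axis, number measured in brackets) that were higher (red, right) or lower (blue, left) past the test in 5 comparisons; the horizontal axis is a percentage of measured genes in both directions. The mitosis list is red throughout in the control time panel and blue throughout in both day 3 label panels, while the replication and methyl donor lists run opposite to it there.

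Plasma cell markers, all 8 measured, are given for the aim of the series. In controls 4 rose and 1 fell over time, 5 and 4 were lower and 1 higher at day 3 on the labels, and 3 and 4 were higher and 1 lower at day 1. The Jmjd2c count of 4 was 2 without either day 1 control or Jmjd2c replicate 2, and the Jmjd2a count of 5 was 3 without Jmjd2a day 3 replicate 1. Their mean log2 level was 8.99 in both day 1 controls, 9.22 to 9.41 on the labelled day 1 arrays, 9.36 to 9.43 in day 3 controls and 9.06 to 9.11 on the labelled day 3 arrays.

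The genes whose levels followed a member most closely over the 12 arrays were picked by Pearson's r among 11177 other genes above the median level, as a description. The 12 arrays share 6 groups, so r mostly reflects the group means. Uhrf1 was closest to Rcc1 (0.992), 6030458C11Rik (0.987) and Znhit2 (0.987). Hells was closest to Exosc9 (0.988), Ndufc1 (0.978) and Fdft1 (0.977), and Dnmt3b to Ldha (0.979), Ahsa1 (0.976) and Gps1 (0.976). Dnmt3a was closest to Nfat5 (0.978), Zfp983 (0.94) and Fzr1 (0.935), and Dnmt1 to Tpi1 (0.967), Tmem147 (0.967) and Eme1 (0.965).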

How the data were processed

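Total RNA was measured on 12 Affymetrix arrays in 6 groups of 2. The deposited table holds log2 values per probe set, made by the authors (normalization not given in the sources used here). Control probe sets, 64 of 45101, were not used. The platform annotation named 1 gene for 34945 probe sets, several for 932 and none for 9160. In limma 3.58.1 under R 4.3.3, a model of 6 group means was fitted, using eBayes with an intensity trend and leaving 6 residual degrees of freedom. The Benjamini-Hochberg adjustment ran over the 45037 probe sets of each contrast, 13 contrasts in all. With 2 arrays against 2, an exact permutation test of 1 gene cannot go below p = 0.333, so none was used. Arrays have no read depth, and their number limits the precision.

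The members, lists, contrasts and tests were chosen with earlier results of these data known. Gene lists name their extreme members past the test, and some that the rule selects are left out for length. Alternatives were quantile normalization, median centring, no dim probe sets, no trend, array weights, the second brightest probe set, an adjusted p under 0.1, only the groups compared, the replicate number as a block, and each array left out. Method scripts were tested on simulated data for Jmjd2a against control at day 1, with 200 of 45037 probe sets changed. The test recovered 5.5% of changes of 1.25 times, 50% of 1.5 times and 96% of 2 times. All other probe sets were simulated without a difference, where 3366 were called in the data. The adjusted p depends on that number, so recovery in the data can differ from these shares. A small difference that did not pass is thus not shown to be absent. Promoters came from RefSeq (GRCm38.p6). Figures were drawn with matplotlib 3.10.9.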

Additional observations from a re-analysis of the deposited data

Results flagged for a closer look

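For the brightest probe sets of 4 genes the difference from control changed between day 1 and day 3, by limma's test of that change over all probe sets. Other probe sets of Dnmt3a, Hells and Dnmt1 did not all give the same call as the brightest, as stated above. With the Jmjd2a label the change was 1.12 for Uhrf1 (adjusted p = 0.00038), 0.63 for Hells (adjusted p = 0.00049), 1 for Dnmt3b (adjusted p = 0.0018) and -0.5 for Dnmt3a (adjusted p = 0.032). With the Jmjd2c label it was 0.99 for Uhrf1 (adjusted p = 0.00088), 0.73 for Hells (adjusted p = 0.00016), 1.02 for Dnmt3b (adjusted p = 0.0014) and -0.7 for Dnmt3a (adjusted p = 0.0049). Both labels are set against the same 4 control arrays. With single arrays left out, 7 of these 8 changes passed each time. That of Dnmt3a with the Jmjd2a label was lost in 6 of 12 cases, without day 1 control replicate 2, day 1 Jmjd2a replicate 1 or any of the 4 labelled day 3 arrays, with values from -0.53 to -0.41.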

How the results depend on the processing

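Of 1837 values for 88 pairs of gene and comparison under 21 alternative settings, 1705 stayed on their side of the threshold, 93 no longer passed, 38 passed newly and 1 turned and passed. Among the 1705, 57 changed sign, none of which passed under either setting. The turned value was Dnmt1 on the Jmjd2a arrays at day 3, 0.36 (adjusted p = 0.034) with its second brightest probe set. Only pairs that passed in the main fit could lose a call, and most of the 88 did not pass there. Losses are thus a larger share of the calls than of all values. Tet3 has 1 probe set, so it kept its main values in the setting of the second brightest. Numbers of the 8 genes past the test follow. Without the trend of the prior variance, 1 passed on each label at day 1 and over time (2 each before) and 2 for Jmjd2a at day 3 (4 before). With the second brightest probe set, 0 passed on each label at day 1 and over time. Array weights gave 4 for Jmjd2c at day 1 and over time (2 before) and 2 for Jmjd2a at day 3. Quantile normalization gave 1 for Jmjd2c at day 1. Fits on only the groups compared gave 4 for Jmjd2a at day 1, 1 for Jmjd2a and 2 for Jmjd2c at day 3, 2 over time in controls (4 before) and 1, Dnmt3a, between the labels at day 3 (0 before). The cause was not tested, beyond the smaller number of arrays in the last.

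With single arrays left out, the number past the test ranged from 1 to 3 for Jmjd2a and 1 to 4 for Jmjd2c at day 1, from 2 to 4 and 3 to 4 at day 3, from 3 to 5 over time in controls, and from 0 to 3 and 1 to 4 over time on the labels. It was 0 between labels, and 3 to 5 and 4 to 5 for the changes between days. Replicate numbers were not taken as pairs, and the labels name no shared animal or batch. Replicate differences correlated at 0.392 between the day 1 Jmjd2a and Jmjd2c groups, and at -0.111 to 0.092 between all other groups. The cause of the 0.392 was not tested. The day 1 results of the labels, which also share their controls, are thus not separate findings. With the replicate number as a block, 2 and 2 passed at day 1, 4 and 3 at day 3 and 4 over time in controls, and 1 call was lost, Hells for Jmjd2c at day 3 (0.21, adjusted p = 0.052). Signal over background is not given with the values, which limits the dim Tet1 probe sets most.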
